A study of Mus musculus with 18 samples.

Results

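The phase II conjugation enzymes of mouse liver examined here are the glutathione S-transferases (Gst), the UDP-glucuronosyltransferases (Ugt) and the cytosolic sulfotransferases (Sult). They were taken by gene symbol: Gst of the alpha, kappa, mu, omega, pi, theta and zeta classes, Ugt of families 1 to 3 and Sult of families 1 to 5. This gave 61 members, 22 Gst, 20 Ugt and 19 Sult, of 24539 listed genes. The livers came from male wild-type C57BL/6 mice that were 16 weeks old at sampling, after 8 weeks on 1 of 3 diets. The diets were a high-fat diet supplemented with lycopene, a tomato carotenoid (HFD+LYC), the high-fat diet alone (HFD), and normal chow (control). Each diet had 3 livers. From the sample titles, every liver was taken to have given a pair of poly(A) libraries, so that 9 livers made 18 libraries. One was from total RNA (mRNA) and one from RNA pelleted with ribosome-nascent chain complexes (RNC). RNC RNA stands for messages held by ribosomes at lysis. The libraries are of bulk tissue, in which fewer cells of a type and less RNA per cell cannot be told apart.

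Conjugation makes drugs, steroids, bilirubin, bile acids and reactive aldehydes more soluble, and hepatocytes are its main site. Gst enzymes add glutathione, Ugt enzymes of families 1 and 2 add glucuronic acid from UDP-glucuronic acid, and Sult enzymes add sulfate from the donor PAPS. The donors are made by separate enzymes, and many conjugating enzymes are induced through nuclear receptors and through the antioxidant response factor NRF2.

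The libraries held 4533729 to 12742436 listed reads, so 3 reads stood for 0.235 to 0.662 CPM (counts scaled to a common library size) in a single library. All 8 hepatocyte markers (Alb, Apoa1, Ttr and others) were detected in every library. Those of HFD+LYC RNC differed from the rest, with reads from 8940, 9567 and 10037 genes, against 13324 to 14450 in the HFD and control RNC libraries. They had 70 to 112 genes with a single read, where HFD and control RNC libraries had 614 to 861. Their hepatocyte marker sum was 118100 to 456000 CPM, against 69370 to 103300 CPM in HFD RNC and 93220 to 117500 CPM in control RNC. Muscle markers, mainly Ttn, summed to 28.1 to 61.8 CPM in HFD+LYC RNC, against 1.11 CPM at most in HFD and 1.23 CPM at most in control RNC, while 6 of the 8 were at 0 in all 3 HFD+LYC RNC libraries. Summed levels of Kupffer, endothelial and stellate markers were lower in every HFD+LYC RNC library than in any other RNC library. In HFD+LYC mRNA, cholangiocyte markers summed to 32.1 to 51.4 CPM, against 138 to 179 in HFD and 142 to 168 in control mRNA. Endothelial markers summed to 428 to 625 CPM in HFD+LYC mRNA, against 297 to 352 in HFD and 241 to 332 in control mRNA. Replicate 2 had the lowest hepatocyte marker sum of its diet in HFD+LYC mRNA (23860 CPM) and in control mRNA (36080 CPM). The part of these differences in the results below was not tested.

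Of the 61 members, 37 had reads in all 18 libraries and 8 had none in any: Sult1c1, Sult2a1 to Sult2a6 and Ugt2a1. The silent Sult2a genes are known as female-predominant in mouse liver. Together the members took 0.439% to 1.44% of the listed reads, with the lowest share in HFD+LYC RNC replicate 1. Most subfamilies lie in clusters (GRCm38): 7 Gstm genes at chr3:107895854-108045179, 3 Gstp genes at chr19:4035411-4059605, 8 Ugt1a genes at chr1:88055411-88220002, 7 Ugt2b genes at chr5:86889770-87424203 and 8 Sult2a genes at chr7:13623967-14493023. Per kilobase of transcript in control mRNA, Gstp1 led with 4106 ± 2224 CPM per kb (SD, n = 3), followed by the other Gst genes Gstm1 (1407 ± 639), Gstz1 (478 ± 55.8) and Gsta3 (442 ± 220 CPM per kb). Gstm1 belongs to the mu class, Gsta3 is the alpha enzyme that detoxifies aflatoxin epoxide in mice, and Gstz1 isomerises maleylacetoacetate in tyrosine breakdown. Among Sult genes the order was Sult2a8 (493 ± 103), Sult1a1 (146 ± 51.2), Sult1d1 (57.9 ± 8.50) and Sult5a1 (13.7 ± 4.75 CPM per kb). Among Ugt genes it was Ugt2b5 (419 ± 156), Ugt2b36 (354 ± 65.3), Ugt2b1 (211 ± 73.3) and Ugt1a2 (186 ± 73.5 CPM per kb). The mean ± SD ranges of neighbours in these orders were apart for Gstm1 and Gstz1, for Ugt2b36 and Ugt2b1 and along the 4 Sult genes, and overlapped for the others.

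Several members are close copies, and the sources used here do not give how the authors assigned reads to copies. By GENCODE M21 transcripts (GRCm38), 23 of the 61 members shared at least 10% of their 50-base words with another member, 12 shared at least 50%, and 27 shared none. The Ugt1a genes are known to join alternative first exons to the same last exons. Of the 8, 7 end at the same annotated base, and all shared 40.5% to 100% of their words, so the split of reads among them is uncertain. Gstp1 and Gstp2 shared 62.3% and 64.3% of theirs, and Gsta1 and Gsta2 had coding sequences 98.1% identical, so their separate values are uncertain too. Sult1a1, Sult2a8, Gsta3, Gstk1, Gstt1, Gstt2 and Ugt2b1 shared no such word with another member.

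The start of the Gstp1 and Gstp2 coding sequences is shown because the finding on the pi class turns on telling these copies apart. Both genes lie on the minus strand, Gstp2 at chr19:4040288-4042221 and Gstp1 at chr19:4035411-4037912. Over 630 coding bases they differ at 12, and 6 of those lie in the first 60 bases, given here from GENCODE M21 with the differing bases in capitals.
Gstp2: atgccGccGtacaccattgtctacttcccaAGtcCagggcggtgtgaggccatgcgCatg
Gstp1: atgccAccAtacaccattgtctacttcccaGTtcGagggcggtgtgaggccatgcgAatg
A read that crosses none of the 12 differences fits both genes equally.

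The promoters of the same pair are shown because each gene was called higher in HFD+LYC than in HFD livers in a single library kind. Gstp1 was called in RNC, while its mRNA levels overlapped. Gstp2 was called in mRNA, while its RNC levels overlapped, with means of 56.9 CPM in HFD+LYC and 17.8 CPM in HFD. Being called in 1 kind only is no test of a difference between kinds, and a part of the promoters in these levels was not tested. The promoters are the 250 bases before the RefSeq start (GRCm38.p6, minus strand), at chr19:4037913-4038162 for Gstp1 and chr19:4042222-4042471 for Gstp2. Capitals mark TGANTCA, the AP-1 type motif, which reads the same on both strands.
Gstp1 promoter: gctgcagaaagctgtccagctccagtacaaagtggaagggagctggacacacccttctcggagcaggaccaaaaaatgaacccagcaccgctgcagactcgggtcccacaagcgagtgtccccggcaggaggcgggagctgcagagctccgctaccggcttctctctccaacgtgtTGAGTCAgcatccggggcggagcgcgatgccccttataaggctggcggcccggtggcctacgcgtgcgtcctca
Gstp2 promoter: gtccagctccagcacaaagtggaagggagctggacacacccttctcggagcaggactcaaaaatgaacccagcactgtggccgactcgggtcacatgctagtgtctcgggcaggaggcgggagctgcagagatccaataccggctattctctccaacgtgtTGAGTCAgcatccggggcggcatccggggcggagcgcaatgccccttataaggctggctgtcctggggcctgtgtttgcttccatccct
Each held 1 match, followed in both by the same run of bases, and 207 of the bases that align between them (88.1%) were identical. The motif occurred in 6.75% of 32851 RefSeq promoters of the same length. By gene it occurred in 7.82% of 27025 genes and in 11 of the 53 members with a promoter in the table, Ugt2b1 and Ugt2b35 among them. The NRF2 type motif TGACNNNGC was found, on either strand, in 11.5% of genes and in 3 of the 53 members (Gsta3, Gstm5, Gstm7). The xenobiotic response motif core GCGTG, on either strand, was in 30.9% of genes and in 9 of the 53 members. The searches covered only these windows, and a match is a description of letters.

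Levels below are read counts scaled to CPM with edgeR's TMM factors, and a member passed at an adjusted p under 0.05 in edgeR's quasi-likelihood test over all tested genes. After the filter on low counts 42 members were tested in mRNA and 43 in RNC. The members that failed the filter in mRNA were 13 Sult, 4 Ugt and 2 Gst, and Sult2a7 among them passed it in RNC. The comparisons share libraries: those of each diet enter 2 of the 3 diet comparisons, so these are not independent.

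Whether the high-fat diet alone moved these enzymes was asked against control livers. No member passed in mRNA, where 0.0158% of 12664 genes did, and none passed in RNC, where 0.00858% of 11660 genes did. In mRNA 3 of 42 members (7.14%, all genes 2.83%) had an unadjusted p under 0.05. DESeq2 called 0 members there (all genes 0.324%) and limma-voom 0 (all genes 0.0079%). In RNC 3 of 43 (6.98%, all genes 1.84%) had an unadjusted p under 0.05. DESeq2 called 1 in RNC (2.33%, all genes 0.286%) and limma-voom 0 (all genes 0%). The median log2 fold change over members was 0.05 in mRNA (all genes -0.01) and -0.12 in RNC (all genes 0.01). Every HFD library was above every control library for 0 members in mRNA and 2 in RNC (3.76% and 6.97% of all tested genes). Every HFD library was below every control library for 1 member in mRNA and 6 in RNC (3.46% and 7.20% of all genes).

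HFD+LYC livers were then set against HFD and against control livers. In mRNA 1 member, Gstp2, was higher in HFD+LYC than in HFD livers and none was lower, where 2.91% of all genes passed (1.99% higher, 0.916% lower). Against control, Ugt2b35 and Gstm7 were lower in HFD+LYC mRNA and no member was higher, where 5.54% of all genes passed (3.31% higher, 2.23% lower). In RNC, 2 of 43 members were higher and 8 lower in HFD+LYC than in HFD livers, where 26.8% of all genes passed (9.34% higher, 17.4% lower). Against control, none was higher and 10 were lower in HFD+LYC RNC, where 26.3% of all genes passed (9.23% higher, 17.1% lower). The share of members called, 23.3% in either RNC comparison, was thus near the background, and the counts say nothing particular to these enzymes.

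In mRNA the direction of most members was down without passing: 34 of 42 members had a negative log2 fold change in HFD+LYC against HFD (median -0.65, all genes -0.04) and 35 of 42 against control (median -0.61, all genes -0.05). Of the 8 hepatocyte markers, 6 were negative against HFD (median -0.84) and 7 against control (median -0.71) in the same mRNA libraries, and none passed. The part of this in the members' values was not tested. In RNC the median was -0.22 against HFD (all genes -0.29) and -0.43 against control (all genes -0.28). On another scale, mean log2 CPM in HFD+LYC minus HFD RNC, the all-gene median was -0.73 with TMM factors and -1.33 with no factors. The median over members on that scale was -0.41 and -1.11. RNC values thus stand relative to a shifted centre. The heatmap of log2 fold changes sets the tested members side by side.

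**Figure D1:**
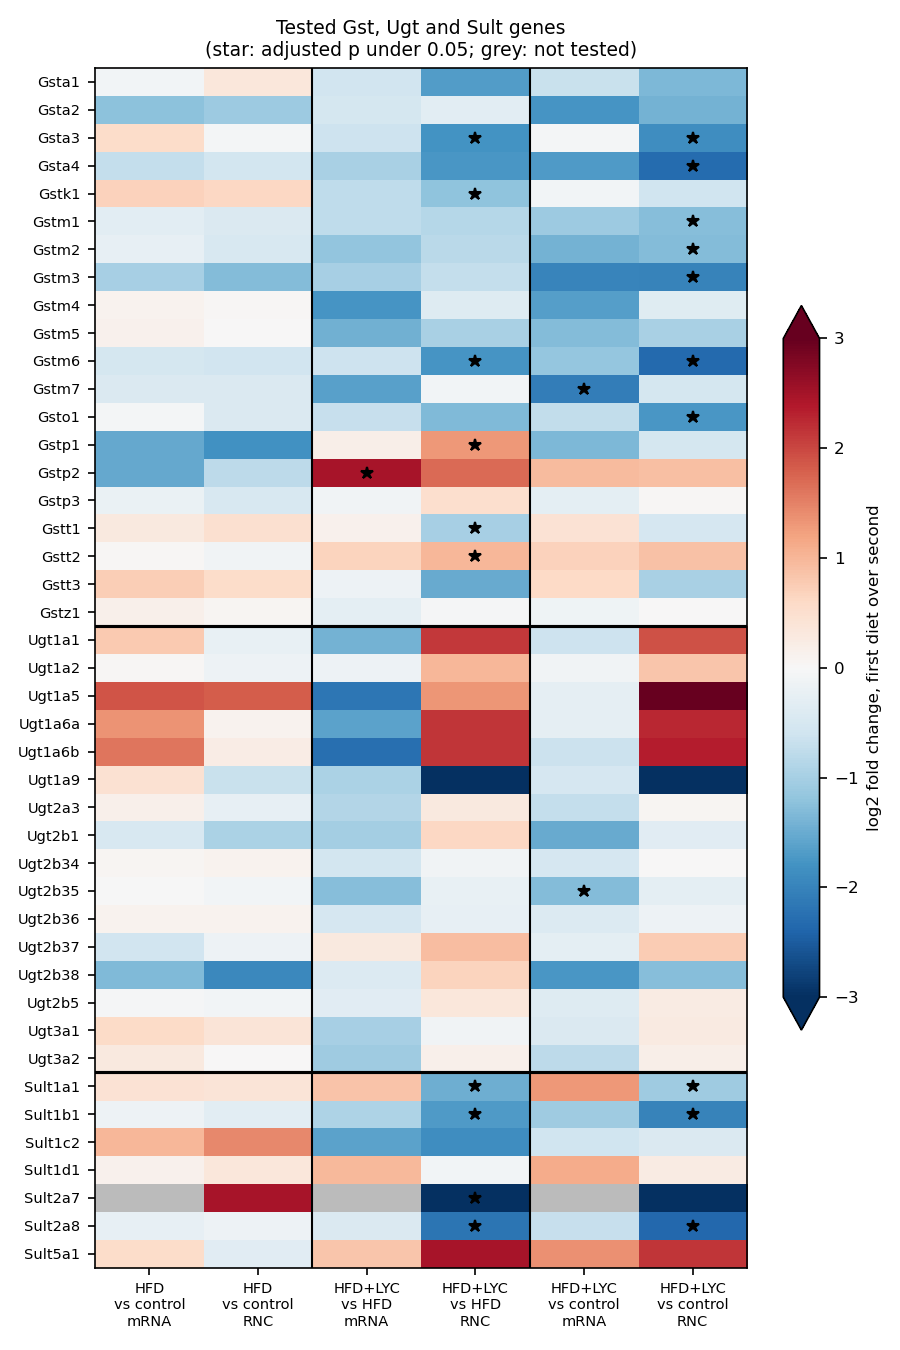
Log2 fold changes of the 43 tested members (rows) in 6 diet comparisons (columns: 3 in mRNA, 3 in RNC), first-named diet over second, from edgeR. Colour is limited to -3 and 3, stars mark an adjusted p under 0.05, and grey means not tested; members with 0 reads in a group, such as Sult2a7 and Ugt1a9 in HFD+LYC RNC, have fitted values that are no measure of size. The stars fall in the HFD+LYC columns, 10 in each RNC comparison, and none in the HFD against control columns.

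The pi class, the Gst class with the highest summed level in control livers, had its lowest RNC levels on the high-fat diet alone. Gstp1 stood at 944, 518 and 717 CPM in HFD RNC and at 2863, 2004 and 2768 CPM in control RNC. All 3 HFD livers were below all control livers, with a log2 fold change of -1.81 (SE 0.319, unadjusted p = 0.000224), but it did not pass (edgeR adjusted p = 0.463). It passed with DESeq2 (-1.78, adjusted p = 3.17e-06) and with the 6 libraries of these diets fitted alone (edgeR adjusted p = 0.0358), and not with limma-voom (adjusted p = 0.277).

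With lycopene, Gstp1 stood at 1480, 2138 and 1721 CPM in HFD+LYC RNC, above the 3 HFD values just given. It was 2.45-fold higher than in HFD livers (log2 fold change 1.29, SE 0.315, edgeR adjusted p = 0.0127), and 2 of its 3 values lay below all control values. The call was lost without HFD replicate 2 (adjusted p = 0.062) or HFD replicate 3 (adjusted p = 0.0616). With the counts of Gstp1, Gstp2 and Gstp3 summed before the fit, the pi class was also higher in HFD+LYC RNC (log2 fold change 1.298, adjusted p = 0.0132).

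In mRNA the diets overlapped for Gstp1. It stood at 1731, 743 and 1105 CPM in HFD+LYC, at 1110, 663 and 1400 CPM in HFD and at 4285, 1173 and 3706 CPM in control livers. The HFD+LYC and HFD ranges lay largely over each other, and control replicate 2 lay within the HFD range, far below the other control livers. HFD against control gave -1.53 (SE 0.555, adjusted p = 1.00), which did not pass. The difference between RNC and mRNA in the HFD+LYC against HFD change did not pass for Gstp1 (interaction 1.045, edgeR adjusted p = 0.313).

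Gstp2, the low copy, moved in mRNA. It stood at 93.3, 101 and 40.2 CPM in HFD+LYC, at 21.1, 12.1 and 8.89 CPM in HFD and at 52.0, 24.4 and 45.2 CPM in control mRNA. HFD+LYC livers were all above HFD livers, a 5.57-fold rise (log2 2.48, SE 0.454, edgeR adjusted p = 0.0204), and all HFD livers were below all control livers without passing (-1.53, adjusted p = 0.87). The HFD+LYC call was lost on leaving out HFD replicate 2 or 3 or HFD+LYC replicate 1 or 2 (adjusted p up to 0.0797). In RNC, Gstp2 stood at 29.0, 97.4 and 44.2 CPM in HFD+LYC, at 34.3, 7.15 and 11.98 CPM in HFD and at 40.6, 25.8 and 24.8 CPM in control, and the diets overlapped.

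The share of Gstp1 in the reads of the pair bears on how these copies were told apart. It was 94.9%, 88.1% and 96.5% in HFD+LYC mRNA, 98.1%, 98.2% and 99.4% in HFD mRNA and 98.8%, 98.0% and 98.8% in control mRNA. The 3 HFD+LYC livers had the lowest shares in mRNA. Summed over the pi class, mRNA in HFD+LYC against HFD did not pass (0.24, adjusted p = 0.797), so the mRNA call rests on the minor copy. Gstp3, which shares no 50-base word with the others, stood at 15.0, 11.3 and 20.6 CPM in HFD+LYC mRNA, at 15.8, 17.3 and 17.2 in HFD and at 27.2, 15.0 and 15.5 in control.

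**Figure D2:**
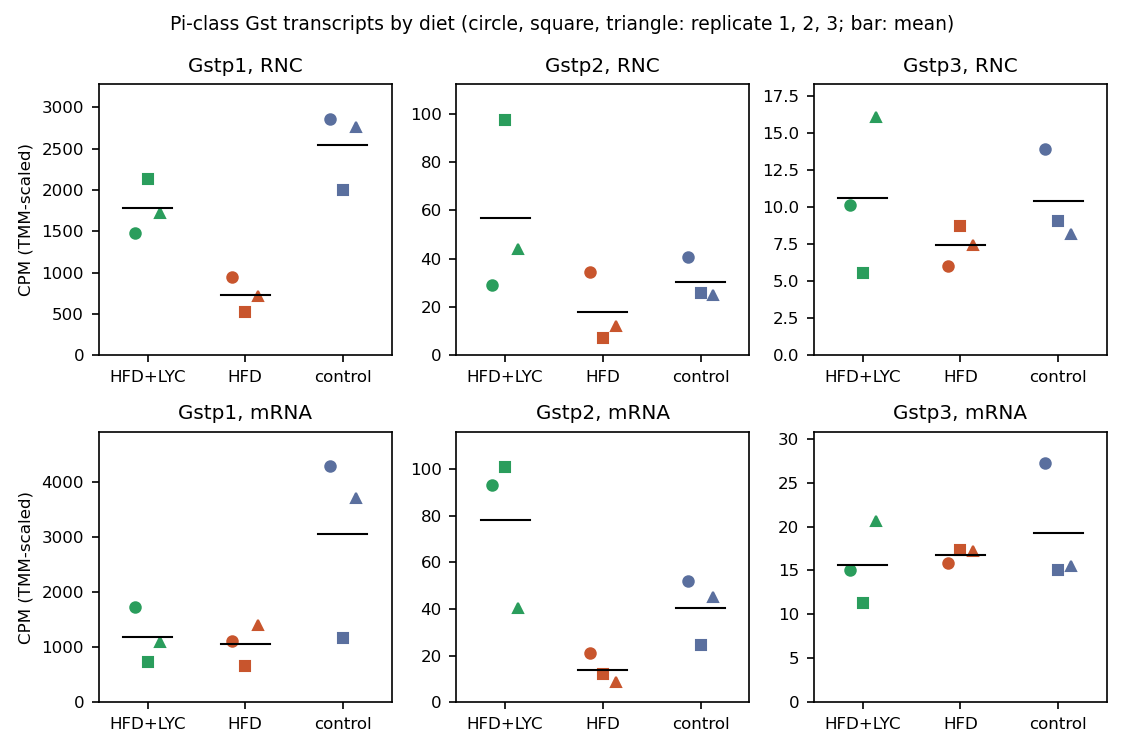
TMM-scaled CPM (linear axes from 0) of Gstp1, Gstp2 and Gstp3 in RNC (top row) and mRNA (bottom row), by diet; circle, square and triangle are replicates 1, 2 and 3 and the bar is the mean. In RNC the 3 HFD points of Gstp1 (518 to 944 CPM) lie below all HFD+LYC and control points, and in mRNA the 3 HFD+LYC points of Gstp2 (40.2 to 101 CPM) lie above all HFD points.

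Of the 7 mu class genes, 4 were lower in HFD+LYC RNC than in control (17.1% of all genes were). Of these, 1, Gstm6, was also lower than in HFD (17.4% of all genes were). Gstm6, a mu class gene of the cluster, stood at 20.7, 15.5 and 26.4 CPM in HFD+LYC, at 48.4, 83.3 and 81.2 CPM in HFD and at 131, 89.7 and 95.8 CPM in control RNC. The 3 diets did not overlap, and Gstm6 was lower in HFD+LYC than in HFD (log2 -1.77, SE 0.307, edgeR adjusted p = 0.00386) and than in control livers (-2.33, SE 0.313, adjusted p = 0.00105). Gstm1, the most abundant of the class, stood at 410.4, 589 and 667 CPM in HFD+LYC RNC, at 854, 1353 and 785 CPM in HFD and at 1884, 939 and 1209 CPM in control. All HFD+LYC livers were below all others, and the fall against control passed (-1.28, SE 0.357, adjusted p = 0.0255) but was lost with a replicate block and without control replicate 1 or 3 (adjusted p up to 0.0994).

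Gstm2 and Gstm3 also fell against control in HFD+LYC RNC. Gstm2 was at 30.4, 21.1 and 40.3 CPM in HFD+LYC, 38.8, 69.2 and 53.7 in HFD and 103, 54.0 and 70.1 in control (-1.3, adjusted p = 0.0206), a call lost without control replicate 1. Gstm3 was at 2.28, 17.1 and 17.9 CPM in HFD+LYC, 14.1, 31.3 and 15.9 in HFD and 71.7, 33.7 and 45.3 in control (-2.003, adjusted p = 0.048), and was lost under 9 of 16 alternatives. Every HFD+LYC liver was below every control liver for both, and the HFD range overlapped that of HFD+LYC. Summed to 1 feature, the Gstm genes fell against control in RNC (-1.29, adjusted p = 0.0227) and did not pass against HFD (-0.84, adjusted p = 0.107). Gstm4, Gstm5 and Gstm7 did not pass in RNC. Gstm4 was at 10.3, 55.0 and 28.4 CPM in HFD+LYC, 31.6, 46.9 and 44.4 in HFD and 50.5, 33.9 and 35.9 in control RNC. Gstm7 was at 12, 28.4 and 33.5 CPM in HFD+LYC, 20.7, 28.9 and 29.0 in HFD and 33.3, 34.0 and 39.4 in control RNC, and both overlapped the other diets.

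In mRNA the mu gene that passed was Gstm7. It stood at 15.5, 3.802 and 21.2 CPM in HFD+LYC, at 38.5, 25.8 and 61.8 CPM in HFD and at 65.5, 44.2 and 59.8 CPM in control mRNA. HFD+LYC livers were below all others, with -2.06 against control (SE 0.520, edgeR adjusted p = 0.0428) and -1.64 against HFD (adjusted p = 0.096, not passed). The control call was lost on leaving out any of 6 of the 9 libraries (adjusted p up to 0.137). Gstm4 was at 10.6, 6.65 and 24.6 CPM in HFD+LYC mRNA, at 30.4, 31.2 and 81.9 in HFD and at 68.8, 22.2 and 41.4 in control, and did not pass (-1.77 against HFD, adjusted p = 0.101).

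The alpha class was carried by Gsta3, which fell in HFD+LYC RNC. Gsta3 stood at 249, 258 and 364 CPM in HFD+LYC, at 480, 1485 and 1048 CPM in HFD and at 834, 1103 and 1214 CPM in control RNC. HFD+LYC livers lay below all others, 3.46-fold below HFD (log2 -1.79, SE 0.404, edgeR adjusted p = 0.00932) and 3.62-fold below control (-1.86, SE 0.405, adjusted p = 0.00818). In mRNA its values overlapped, at 682, 555 and 684 CPM in HFD+LYC, 459.7, 783 and 1715 in HFD and 959.6, 306 and 742 in control. Gsta4, which conjugates the lipid peroxidation aldehyde hydroxynonenal, stood at 3.52, 22.1 and 16.2 CPM in HFD+LYC RNC, at 24.0, 66.4 and 49.5 in HFD and at 61.2, 56.8 and 88.6 in control. It fell against control (-2.30, adjusted p = 0.0177), a call lost without control replicate 3 (adjusted p = 0.0603). Gsta2, near-identical to Gsta1, was at 6.61, 12.1 and 9.78 CPM in HFD mRNA, against 36.6, 7.03 and 23.4 in control, and did not pass (-1.24, unadjusted p = 0.0608).

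The theta pair went opposite ways in HFD+LYC RNC. Gstt1 and Gstt2 act on halogenated methanes and related compounds and lie at chr10:75783813-75798584 and chr10:75831842-75837419, in a cluster of 4 theta genes. Gstt1 stood at 249, 219.8 and 219.9 CPM in HFD+LYC, at 580.2, 357 and 429.7 CPM in HFD and at 357, 339 and 279 CPM in control RNC. It was lower in every HFD+LYC liver than in any other, with -0.99 against HFD (SE 0.246, edgeR adjusted p = 0.014). Gstt2 stood at 36.01, 68.1 and 62.7 CPM in HFD+LYC, at 27.5, 29.2 and 27.0 CPM in HFD and at 42.8, 21.5 and 26.5 CPM in control RNC. It was higher in every HFD+LYC than HFD liver (1.00, SE 0.328, adjusted p = 0.0498), a call lost under 11 of 17 alternatives. In mRNA neither passed, with Gstt1 at 430.4, 305 and 697 CPM and Gstt2 at 80.2, 73.5 and 99.6 CPM in HFD+LYC, 438, 393 and 469.5 and 41.9, 69.4 and 49.1 in HFD, and 473, 293 and 294 and 72.9, 26.5 and 58.1 in control.

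Of the remaining Gst classes, kappa and omega genes fell. Gstk1, the kappa enzyme of mitochondria and peroxisomes, stood at 92.1, 76.2 and 90.1 CPM in HFD+LYC, at 175, 238 and 186 CPM in HFD and at 125, 128 and 137 CPM in control RNC. The 3 diets did not overlap: HFD+LYC was lowest and HFD highest. HFD+LYC was 2.32-fold below HFD (log2 -1.21, SE 0.212, edgeR adjusted p = 0.00365), and HFD against control gave 0.62 (unadjusted p = 0.014), which did not pass. Gsto1, the omega enzyme that reduces dehydroascorbate, was at 21.7, 31.7 and 6.43 CPM in HFD+LYC, 35.6, 61.8 and 51.7 in HFD and 57.0, 64.1 and 79.5 in control RNC. It fell against control (-1.75, adjusted p = 0.0253), and the call was lost on leaving out any of the 3 control libraries. Gstz1, which did not pass in any comparison, stood at 715 to 739 CPM in HFD+LYC, 812 to 1011 in HFD and 708 to 893 in control mRNA.

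Of the 20 tested Gst members, 2 were thus higher and 4 lower in HFD+LYC than in HFD RNC (Gsta3, Gstk1, Gstm6 and Gstt1 lower). Of all genes, 9.34% were higher and 17.4% lower. The Gst median was -0.83 (all genes -0.29), with 16 of 20 negative. Against control 7 were lower (17.1% of all genes were), with a median of -0.97 (all genes -0.28). The 2 untested Gst members, Gsto2 and Gstt4, had 19 and 9 reads over all libraries.

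No Ugt member passed in any RNC diet comparison (all genes 0.00858% to 26.8%), and 1 of 16, Ugt2b35, passed in mRNA against control (all genes 5.54%). Ugt2b35 is a member of the Ugt2b cluster at chr5:87000860-87013274. It stood at 81.8, 78.1 and 67.5 CPM in HFD+LYC, at 209, 149.8 and 195 CPM in HFD and at 244, 139 and 179 CPM in control mRNA. HFD+LYC livers were below all others, by 2.47-fold against control (log2 -1.30, SE 0.319, edgeR adjusted p = 0.0391) and by -1.28 against HFD (SE 0.319, adjusted p = 0.0547, just short of the threshold). The control call was lost under 9 of 17 alternatives, among them leaving out control replicate 1 or 3, HFD replicate 1 or 2 or any HFD+LYC replicate (adjusted p up to 0.13). In RNC its levels overlapped, at 180, 68.3 and 55.7 CPM in HFD+LYC, 97.7, 138 and 118 in HFD and 146, 102 and 123.4 in control.

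The other Ugt members leaned the same way in mRNA without passing. All 16 tested Ugt had a negative log2 fold change in HFD+LYC against control mRNA (median -0.50), and 15 of 16 against HFD (median -0.98). Ugt2b1 stood at 222, 129 and 213 CPM in HFD+LYC, at 436, 234 and 479.8 in HFD and at 636, 322 and 653 in control mRNA. HFD+LYC lay below both other diets (-1.51 against control, adjusted p = 0.0613). The most abundant of the family, Ugt2b5, stood at 672, 391 and 754 CPM in HFD+LYC, 655, 657 and 993 in HFD and 1016, 458 and 904 in control mRNA, with overlap throughout. Ugt2b36 stood at 446.5, 442 and 627 CPM in HFD+LYC, 625, 764 and 763 in HFD and 744, 527 and 736 in control mRNA.

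On the high-fat diet alone, the Ugt genes with the smallest p were Ugt1a6b and Ugt1a5 in mRNA and Ugt2b1 in RNC, and none passed after adjustment over all genes. Ugt1a6b stood at 3.31, 4.55 and 14.0 CPM in HFD and at 1.97, 1.79 and 3.43 CPM in control mRNA (log2 1.60, edgeR adjusted p = 1.00). Ugt1a5 stood at 0.62, 2.39 and 17.1 CPM in HFD and at 3.02, 1.24 and 1.14 CPM in control mRNA (log2 1.89, edgeR adjusted p = 1.00), and the log2 difference was -0.27 without HFD replicate 3. For both genes that replicate was the highest liver and the diets overlapped. Ugt2b1 stood at 344, 296 and 420.5 CPM in HFD RNC and at 625, 601 and 816 CPM in control RNC, with all HFD livers below all control livers (log2 -0.94, edgeR adjusted p = 1.00).

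In RNC the highest and the lowest summed Ugt level both came from HFD+LYC livers. Summed over the 20 Ugt genes, RNC levels were 6756, 2242 and 3205 CPM in HFD+LYC, 2856, 3423 and 3473 CPM in HFD and 3541, 3281 and 4117 CPM in control livers. HFD+LYC replicate 1 held the highest sum of the 9 RNC libraries and replicate 2 the lowest. Replicate 1 also had the highest hepatocyte marker sum (456000 CPM), the fewest genes with reads and a TMM factor of 0.428, against 1.15 and 0.836 for replicates 2 and 3. Ugt1a2, the main Ugt1a gene with 85.9% to 98.7% of the Ugt1a reads, stood at 1371, 411 and 779 CPM in HFD+LYC, 284, 539 and 460 in HFD and 503, 431 and 502 in control RNC. Ugt1a6a, a phenol-conjugating enzyme, stood at 18.4, 8.63 and 12.2 CPM in HFD+LYC, 1.11, 5.25 and 2.33 in HFD and 1.32, 1.99 and 4.81 in control RNC. All HFD+LYC livers were above all others for Ugt1a6a, and it did not pass (2.26 against control, adjusted p = 0.0507). Summed over Ugt1a, RNC levels were 1497, 439 and 849 CPM in HFD+LYC, 290, 575.5 and 475 in HFD and 512, 445 and 537 in control livers, so that 2 of the 3 HFD+LYC livers lay above all others. With these genes summed before the fit, HFD+LYC against HFD RNC gave 1.055 (adjusted p = 0.103). Ugt1a9 had 0 reads in the 3 HFD+LYC RNC libraries, against 61 reads in HFD and 80 in control RNC. Against a floor of 3 reads over the group it was at least 9.70-fold lower than in HFD and at least 12.7-fold lower than in control, and it did not pass. By library it had 0, 55 and 6 reads in HFD and 13, 19 and 48 in control RNC. The bound was 1.675-fold without HFD replicate 2 and 7.81-fold without control replicate 3.

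**Figure D3:**
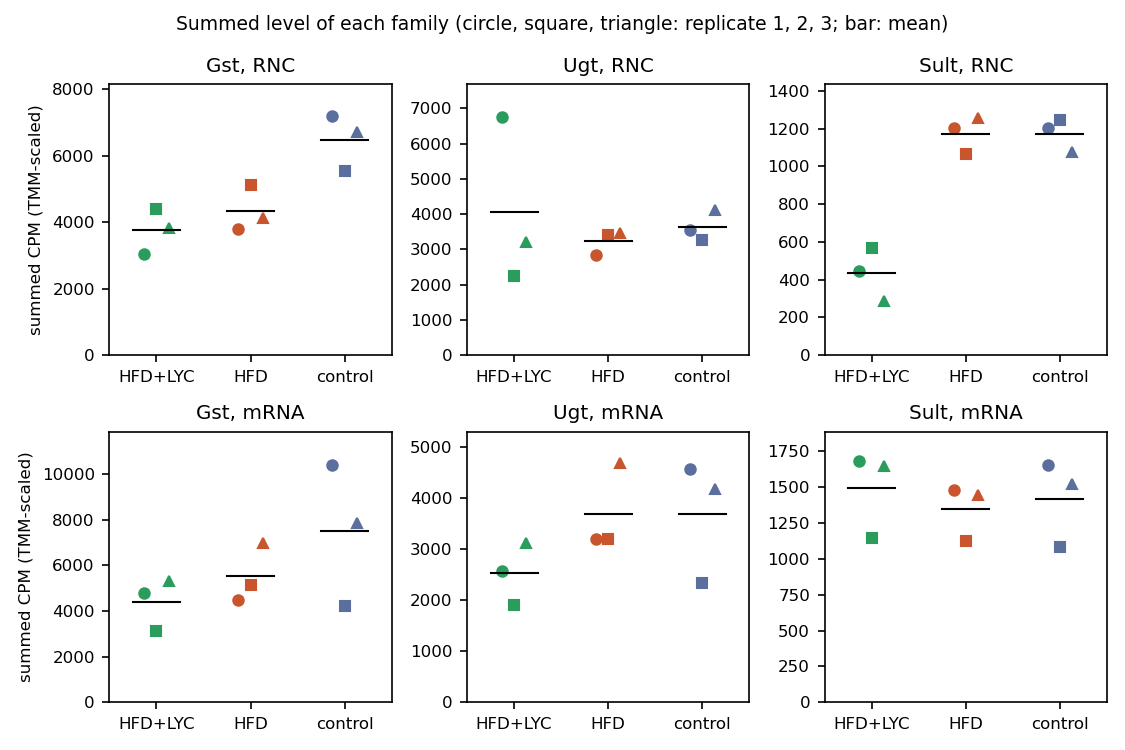
Summed TMM-scaled CPM of the 22 Gst, 20 Ugt and 19 Sult members in each library, by diet, RNC and mRNA in separate panels (linear axes from 0; circle, square and triangle are replicates 1, 2 and 3, bar the mean). Sult RNC sums are 289 to 567 CPM in HFD+LYC and 1063 to 1255 CPM in HFD livers, and the Ugt RNC sum of HFD+LYC replicate 1 (6756 CPM) lies above all others.

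The Sult family had its 2 main genes lower in HFD+LYC RNC. Summed over 19 genes, Sult RNC levels were 444, 567 and 289 CPM in HFD+LYC, 1201, 1063 and 1255 CPM in HFD and 1201, 1246 and 1074 CPM in control livers, with no overlap between HFD+LYC and the other diets. In mRNA the sums overlapped, at 1681, 1142 and 1646 CPM in HFD+LYC, 1474, 1122 and 1442 in HFD and 1651, 1079 and 1519 in control. Of 7 Sult members tested in RNC, 4 were lower in HFD+LYC than in HFD (17.4% of all genes were): Sult1a1, Sult1b1, Sult2a7 and Sult2a8.

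Sult2a8 is described in mice as a hepatic bile acid sulfotransferase, and it held 99.5% to 100% of the Sult2a reads. It stood at 154, 258 and 76.3 CPM in HFD+LYC, at 801, 613 and 812 CPM in HFD and at 825, 872 and 794 CPM in control RNC. The highest HFD+LYC liver was below the lowest of the others. The fall was 4.56-fold against HFD (log2 -2.19, SE 0.402, edgeR adjusted p = 0.00449) and 5.10-fold against control (-2.35, SE 0.405, adjusted p = 0.00356). In mRNA it stood at 783, 479.5 and 660 CPM in HFD+LYC, at 1024, 654 and 932 CPM in HFD and at 1163, 784 and 1153 CPM in control, with overlap between HFD+LYC and HFD and no call.

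Sult1a1, the phenol sulfotransferase, lies at chr7:126672865-126690443. It stood at 78.4, 83.3 and 90.4 CPM in HFD+LYC, at 179.5, 257 and 259 CPM in HFD and at 194, 183 and 152 CPM in control RNC. HFD+LYC was below every other liver, with -1.47 against HFD (SE 0.230, edgeR adjusted p = 0.00227) and -1.07 against control (SE 0.228, adjusted p = 0.00719). Its mRNA lay on the other side: 439, 418 and 619 CPM in HFD+LYC, 205, 281 and 328 CPM in HFD and 277, 139.9 and 182 CPM in control livers. All HFD+LYC livers were above all others in mRNA, without passing (0.86 against HFD, adjusted p = 0.182; 1.301 against control, adjusted p = 0.065).

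The smaller Sult genes differed among themselves. Sult1b1, which sulfates thyroid hormones and phenols, stood at 13.3, 4.41 and 5.49 CPM in HFD+LYC, 16.5, 30.7 and 27.0 in HFD and 33.9, 28.8 and 30.4 in control RNC. It fell against HFD (-1.69, adjusted p = 0.0171) and against control (-2.02, adjusted p = 0.00813), and the HFD call was lost without HFD replicate 2 or 3 (adjusted p up to 0.0676). Sult2a7 had 0 reads in the 3 HFD+LYC RNC libraries, against 69 reads over the HFD RNC libraries (0.953, 3.10 and 0.958 CPM) and 11 over control. It was at least 10.97-fold lower than in HFD by the floor of 3 reads over the group (edgeR adjusted p = 0.00909), a bound of 5.58-fold without HFD replicate 2, which held 49 of the 69 reads. Its low level sets it in the range where the HFD+LYC RNC libraries lacked genes in general.

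Sult1d1, known for catecholamine sulfation in mice, stood at 386, 202 and 315 CPM in HFD+LYC, 179.9, 145 and 133 in HFD and 156, 116 and 143 in control mRNA. HFD+LYC livers were above all others, without passing (0.98 against HFD, adjusted p = 0.115; 1.12 against control, adjusted p = 0.0756). In RNC it overlapped, at 139, 215 and 102 CPM in HFD+LYC, 193, 145 and 145 in HFD and 137, 156 and 90.2 in control. Sult5a1 stood at 59.0, 6.14 and 10.04 CPM in HFD+LYC, 6.35, 1.96 and 5.20 in HFD and 6.52, 5.48 and 5.04 in control RNC, where HFD+LYC replicate 1 was the highest (2.48 against HFD, adjusted p = 0.0516). Sult1e1, the estrogen sulfotransferase, failed the filter, with 1.62, 1.49 and 0.731 CPM in HFD+LYC, 0.103, 0.569 and 0.296 in HFD and 0, 0 and 0.254 in control mRNA. Among untested Ugt genes, Ugt1a10, Ugt2a2 and Ugt1a7c had 28, 4 and 3 reads over all libraries. The remaining untested Sult genes with any read (Sult2b1, Sult3a1, Sult3a2 and Sult4a1) had 1 to 9 reads over all 18 libraries.

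How far each transcript was held by ribosomes was asked from the ratio of RNC to mRNA in the same diet, in 1 model over all 18 libraries with scaling common to both kinds. A ratio is relative to all transcripts of a library. No member passed in HFD livers, where 0.101% of 12872 genes did, although 36 of 42 members had a positive log2 ratio (median 0.74, all genes -0.05). None passed in control livers, where 2.13% of genes did, with 40 of 42 positive (median 0.79, all genes -0.07). Of the 8 hepatocyte markers, 6 were positive in HFD (median 0.74) and 8 in control livers (median 1.01), and none passed. A positive ratio was thus not particular to the members. With the liver as a block no member passed in either diet, where 0.00777% of genes did in HFD and 0.0155% in control livers. At an unadjusted p under 0.05 there were 10 members in HFD livers (23.8%, all genes 20.8%) and 12 in control livers (28.6%, all genes 27.3%), near the background. DESeq2 called 2 in HFD livers (8.69% of all genes) and 4 in control livers (17.0% of all genes). With limma-voom 0 were called in both (0.637% and 4.13% of all genes). A fit of the 12 HFD and control libraries alone called 7 of 43 members in HFD livers (16.3%, all genes 17.6%) and 11 in control livers (25.6%, all genes 30.7%). The smallest unadjusted p among positive ratios belonged to Sult1d1 and Gstt1 in HFD livers (1.05 and 1.04) and to Gsta3 and Gstk1 in control livers (1.60 and 1.37).

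In HFD+LYC livers the families split. RNC was higher than mRNA for 16 of 42 members and lower for 2, where 43.4% of genes passed, 12.8% higher and 30.6% lower (median over members 0.80, all genes -0.51). The 16 were 12 of the 16 tested Ugt and 4 Gst (Gstm4, Gstm5, Gstm7 and Gstp1), and the 2 lower were Sult1a1 and Sult2a8. The Ugt median was 1.77. Of the 8 hepatocyte markers, 5 were called higher and 1 lower in RNC, with a median of 3.16, so a high ratio was not particular to Ugt genes. Ugt2b1 stood at 1331, 439.6 and 429.8 CPM in RNC and at 162, 91.4 and 157 CPM in mRNA of the HFD+LYC livers. All RNC values were above all mRNA values (log2 2.43, SE 0.465, edgeR adjusted p = 0.000612). Ugt2a3 (2.00), Ugt2b5 (1.68), Ugt1a6a (2.84) and Gstm7 (1.76) passed under all alternatives run, as did Ugt2b1 and Sult1a1. Ugt1a1, Ugt1a2, Ugt1a6b, Ugt2b34, Ugt2b35, Ugt3a1 and Ugt3a2 were among the 10 calls lost without HFD+LYC replicate 1. Without that liver 8 of 43 members were called (18.6%), where 38.9% of all genes were, so the members' share rested largely on this liver.

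The change of this ratio between diets was tested as an interaction. HFD against control gave 0 members and 0% of all genes, with 0 members at an unadjusted p under 0.05 (all genes 0.155%). DESeq2 called 0 members (all genes 0.0078%) and limma-voom 0 (all genes 0%). For HFD+LYC against HFD 2 members had a higher and 2 a lower ratio, where 3.42% of all genes were higher and 13% lower, 16.4% in all (median over members 0.28, all genes -0.41). Sult1a1 had log2 ratios of RNC to mRNA of -1.58, -1.43 and -1.87 in HFD+LYC, 0.79, 0.84 and 0.61 in HFD and 0.44, 1.37 and 0.67 in control livers. Every HFD+LYC liver was negative and every other liver positive, a difference of -2.39 against HFD (SE 0.439, edgeR adjusted p = 0.00129), kept under all 16 alternatives run.

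Sult2a8 went the same way with a wider spread. Its log2 ratios were -1.44, 0.00212 and -2.21 in HFD+LYC, 0.63, 0.88 and 0.75 in HFD and 0.45, 1.14 and 0.39 in control livers. HFD+LYC replicate 2 lay between the other 2 HFD+LYC livers and HFD (difference -1.83, SE 0.532, adjusted p = 0.0243), and the call was lost on leaving out any HFD replicate or HFD+LYC replicate 1 or 3 (adjusted p up to 0.0842). The paired plot of RNC and mRNA by liver shows both.

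**Figure D4:**
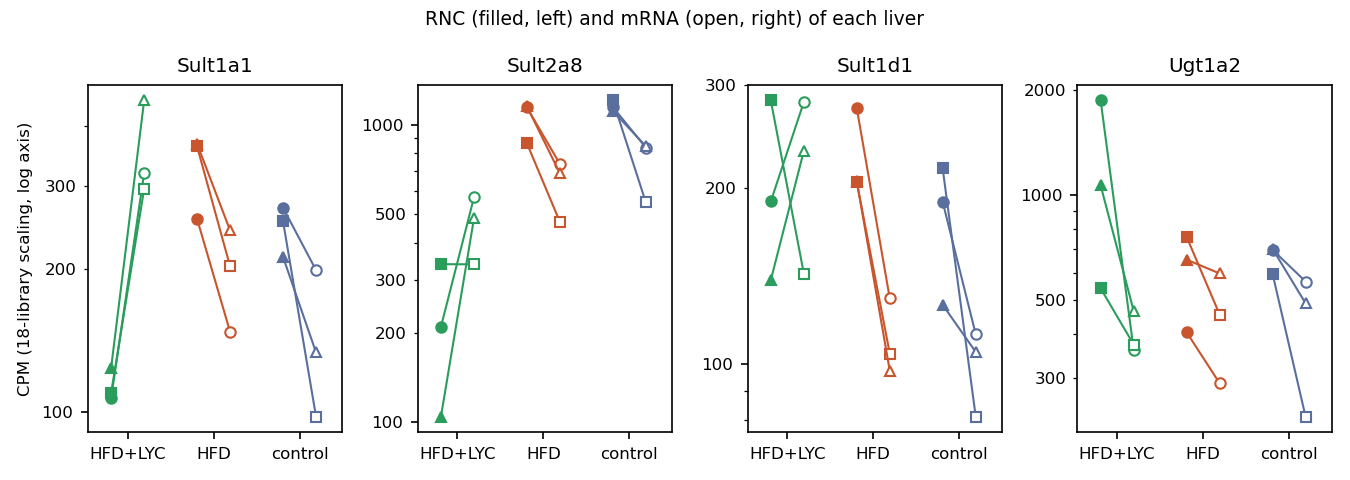
CPM (log axes, scaling common to 18 libraries) of Sult1a1, Sult2a8, Sult1d1 and Ugt1a2 in each liver, RNC filled on the left and mRNA open on the right, joined by a line; circle, square and triangle are replicates 1, 2 and 3. For Sult1a1 the line climbs from RNC to mRNA in the 3 HFD+LYC livers (RNC 107 to 124 CPM, mRNA 296 to 454 CPM) and descends in the other 6 livers.

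The 2 higher ratios belonged to Ugt1a genes. Ugt1a1, the bilirubin-conjugating enzyme, had log2 ratios of 3.39, 2.28 and 1.93 in HFD+LYC, -0.70, 0.86 and -2.25 in HFD and -0.74, 0.51 and 0.49 in control livers (difference from HFD 3.48, SE 1.12, edgeR adjusted p = 0.042). Ugt1a6a had 2.59, 3.46 and 2.28 in HFD+LYC, -0.13, 0.86 and -2.19 in HFD and -0.70, 0.26 and 0.98 in control livers (difference 3.68, SE 1.15, adjusted p = 0.0361). HFD+LYC did not overlap the other diets for either. HFD replicate 3 was the lowest liver for both, and without it the adjusted p was 0.292 for Ugt1a1 and 0.309 for Ugt1a6a. Without HFD+LYC replicate 1 it was 0.137 and 0.0537, and both calls were also lost without any 1 of the control livers. With the liver as a block the adjusted p was 0.0262 for Ugt1a1 and 0.0543 for Ugt1a6a. Both have mostly shared exons, and summed over Ugt1a the difference did not pass (1.24, adjusted p = 0.20). Of the 16 tested Ugt, 15 had a positive difference of the ratio, with a median of 1.05. Of the 8 hepatocyte markers, 6 had a positive difference (median 1.875), and 3 of them passed. The part of this in the Ugt values was not tested.

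**Figure D5:**
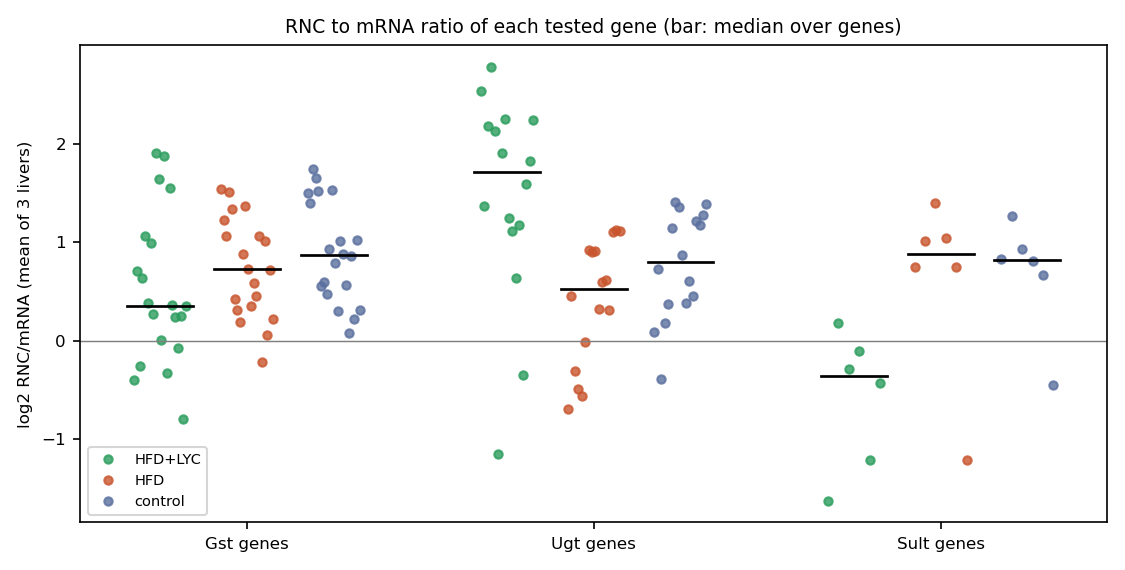
Mean log2 ratio of RNC to mRNA (y axis) of each tested member, by family and diet; each point is 1 gene averaged over 3 livers and the bar is the median over the family's genes. In HFD+LYC livers all Ugt points but Ugt1a9 and Ugt2b38 sit above 0, while Sult1a1 (-1.63) and Sult2a8 (-1.22) are the lowest Sult points.

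Genes that supply and control conjugation were described beside the members, from lists chosen with earlier results of these data known. As background to each list, 9.34% of all genes were called higher and 17.4% lower in HFD+LYC than in HFD RNC. Against control RNC 9.23% were higher and 17.1% lower. Of 10 genes listed for the making of the donors or the handling of their products, 6 fell in HFD+LYC RNC against HFD (median -2.23). The same 6 fell against control (median -1.94). Gclc, the catalytic subunit of glutamate-cysteine ligase, had a median of 46.8 CPM in HFD+LYC (45.1 to 101), 405 CPM in HFD (351 to 425) and 277 CPM in control RNC (270.1 to 281; -2.62 against HFD, edgeR adjusted p = 0.000843). Ugdh, which makes UDP-glucuronic acid, had 53.7 CPM in HFD+LYC (41.6 to 77.4), 154 CPM in HFD (115 to 164) and 149.7 CPM in control RNC (129 to 157; -1.33 against HFD, adjusted p = 0.00616). Papss1, which makes PAPS, had 2.01 CPM in HFD+LYC (1.73 to 4.55), 17.3 CPM in HFD (12.9 to 21.9) and 18.9 CPM in control RNC (11.7 to 19.2; -2.66 against HFD, adjusted p = 0.00415). The others were Gclm (-2.45), Ugp2 (-2.21) and Bpnt1 (-2.70 against HFD), the last of which makes no donor. None of the 6 overlapped either other diet, but they were picked by a test on the same values, so this is no further support. The share of all genes without overlap was not counted here. In mRNA all 10 were negative in HFD+LYC against both diets and none passed (medians -0.53 and -0.69).

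Of 12 regulators and partners, Por, the electron donor of cytochromes P450, and Nr1i2, the xenobiotic receptor PXR, rose in HFD+LYC mRNA against both diets. Of all genes, 1.99% were higher there against HFD and 3.31% against control. Por had 488 to 739 CPM in HFD+LYC, 94.1 to 196 in HFD and 81.4 to 104 in control mRNA (2.24 against HFD, edgeR adjusted p = 0.0161). Nr1i2 had 274 to 508 CPM in HFD+LYC, 59.1 to 114 in HFD and 58.2 to 110.1 in control mRNA (2.16 against HFD, adjusted p = 0.0211). In RNC against HFD, Por (3.59), Nr1i2 (1.36), Rxra (1.502) and Hnf4a (1.21) rose and Nfe2l2, which encodes NRF2, fell (7.66 to 24.0 CPM in HFD+LYC, 59.4 to 67.6 in HFD; -2.07, adjusted p = 0.00397). Against control, Por, Nr1i2 and Rxra rose in RNC.

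Other conjugation genes split in HFD+LYC RNC. Of 10 tested, Nnmt (1.85), a methyltransferase, was higher than in HFD, and Baat (-1.53), the bile acid conjugating enzyme, Tpmt (-1.87), a thiopurine methyltransferase, and Hpgds, at 0 in all HFD+LYC RNC libraries, were lower. Against control, Nnmt and the microsomal transferase Mgst3 were higher and Baat, Tpmt and Hpgds lower. Of 7 export pumps, Abcb11, the bile salt pump, was lower against both diets (-1.04 against HFD), as was Abcc4, at 0 in HFD+LYC RNC. Of 7 uptake carriers, Slco1b2 was lower against both (-1.85 against HFD). Of 3 genes listed for the removal of conjugates, the sulfatases Arsa (1.77) and Arsb (1.73) were higher than in control RNC and none passed against HFD. Whether these sulfatases act on conjugates made by the members was not tested. Of 12 male-biased liver genes, 10 were below control in HFD mRNA and 11 in HFD+LYC mRNA and none passed there. In RNC, Elovl3 was lower in HFD+LYC than in both diets, and Cyp7b1 and Hsd3b5 lower than in control. Of 10 female-biased genes, 4 were tested in mRNA and 5 in RNC. Cyp17a1 and Acot3 rose against control in HFD+LYC mRNA (4.69 and 4.48) and RNC (4.47 and 4.71). In HFD against control every tested female-biased gene was also positive, without passing (median 3.85 in mRNA and 3.97 in RNC). None of them passed in HFD+LYC against HFD.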

How the data were processed

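Each library was deposited as a table of 24539 genes with read counts and RPKM values, per the file headers. The deposited counts are whole reads per gene with splice variants merged, and all tests used them. The deposited RPKM column uses a library total of the authors that exceeded the listed reads by 0.765% to 29.9% of that total, and was not used for tests. Listed reads per library, 4533729 to 12742436, set the precision. Reads were mapped to RefSeq RNA sequences, per the labels. The submitters' processing notes name bcl2fastq and the build mm10. The sources used here give no aligner, strand setting or handling of reads that fit several genes, so antisense or overlapping genes cannot be told apart.

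The counts went into edgeR 4.0.16 (R 4.3.3), with filterByExpr at a minimum count of 10 and a minimum total of 15, TMM factors, the robust quasi-likelihood test and Benjamini-Hochberg adjustment over all tested genes, two-sided, with a threshold of 0.05. The 9 mRNA and 9 RNC libraries were fitted apart (6 residual degrees of freedom each), and all 18 together for the RNC to mRNA ratio (12 residual degrees of freedom), without a term for the liver. Per-liver ratios used log2 of CPM + 0.5. For a group without reads, folds are bounds against 3 reads over that group and cover counting error only. DESeq2 1.42.0, limma-voom 3.58.1, other factors, no filter, a replicate block, summed copies, other sets of libraries and leaving out each library were run as alternatives. The scripts were tested on simulated data. Sequence words and motifs were counted in Python 3.11.15.

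The members and gene lists were chosen with earlier results of these data known. A gene left out of the list of other conjugation genes is not reported here. Named with statistics were every member that passed, the 3 members with the smallest p in each direction of a diet comparison (2 for ratios) and the 4 most abundant per kb in each family; a part of those is given, the rest stand in the heatmap. Gstp3, Ugt1a9 and the leave-out values were named outside that rule, after their values were seen. Replicate numbers were not taken to pair livers of different diets. The mRNA and RNC library with the same diet and number were taken as 1 liver, from the sample titles. Their residuals correlated at -0.04 to 0.51 (median 0.0593, 3 of 9 over 0.1). For unlike numbers of 1 diet the range was -0.52 to 0.38 (median -0.0247, 3 of 18 over 0.1). In HFD+LYC the same-numbered values were 0.0576, 0.0593 and -0.00607, so the residuals give the pairing little backing. A fit with the liver as a block was run as an alternative.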

Additional observations from a re-analysis of the deposited data

Results flagged for a closer look

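The difference of the RNC to mRNA log2 ratio between HFD+LYC and HFD livers passed edgeR's interaction test for 4 members, which means that the diet difference in RNC was unlike the one in mRNA of the same livers. It was -2.39 for Sult1a1 and -1.83 for Sult2a8, whose RNC levels were called lower in HFD+LYC than in HFD livers while their mRNA was not called. It was 3.48 for Ugt1a1 and 3.68 for Ugt1a6a, both with mostly shared exons. Without HFD+LYC replicate 1 the calls of Sult2a8, Ugt1a1 and Ugt1a6a were lost and that of Sult1a1 was kept. The HFD+LYC RNC libraries held fewer genes than the others, and the part of this in the 4 differences was not tested.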

How the results depend on the processing

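Counts of members called moved with the tool, a replicate block and the libraries in the fit. The number tested and the all-gene share moved too, and percentages in brackets are of the tested members unless all genes are named. In HFD+LYC against HFD mRNA (1 called) DESeq2 called 7 (16.7%, all genes 11.8%) and limma-voom 2 (4.76%, all genes 2.69%). A replicate block called 6 (14.3%, all genes 11.5%) and summed near-identical members 0 (all genes 2.9%). Leaving out a library gave 0 to 2 (all genes 0.51% to 4.69%). Against control mRNA (2 called) DESeq2 called 8 (19.0%, all genes 12.9%) and the replicate block 10 (23.8%, all genes 11.3%). Summed members gave 1 (4.0%, all genes 5.55%) and the 6 libraries alone 0 (all genes 4.36%). Leaving out a library gave 0 to 4 (all genes 0.703% to 7.4%). In RNC, HFD against control (0 called) had 1 with DESeq2 (2.33%, all genes 0.286%) and 1 with the 6 libraries alone (2.38%, all genes 0.279%). HFD+LYC against HFD (10 called) had 18 with DESeq2 (41.9%, all genes 35.4%) and 7 to 17 on leaving out a library (all genes 17.7% to 38.7%). HFD+LYC against control (10 called) had 17 with DESeq2 (39.5%, all genes 35.2%) and 6 to 17 on leaving out a library (all genes 17.7% to 38.4%). With genes of at least 50 CPM on average, a setting chosen after seeing the data, it had 6 of 20 (30.0%, all genes 54.5%). For the ratio in HFD+LYC against HFD (4 called) DESeq2 called 8 (19.0%, all genes 21.7%) and summed members 2 (8.0%, all genes 16.4%). Leaving out a liver gave 1 to 7 (all genes 9.75% to 22.4%). RNC against mRNA in HFD+LYC livers (18 of 42 called, 42.9%, all genes 43.4%) had 11 of 25 with summed members (44.0%, all genes 43.4%). It had 11 of 21 with genes of at least 50 CPM (52.4%, all genes 58.2%). Without a liver it had 8 to 20 (all genes 38.6% to 46.5%). In HFD livers (0 called) the same comparison had 2 with DESeq2 (4.76%, all genes 8.69%). It had 7 in the 12 HFD and control libraries alone (16.3%, all genes 17.6%), a fit also chosen after seeing the data. In control livers (0 called) it had 4 with DESeq2 (9.52%, all genes 17.0%) and 11 in those 12 libraries (25.6%, all genes 30.7%). Without a liver it had 0 to 2 there (all genes 0% to 11.7%). Livers of different diets are different animals, and the labels give their shared numbers no meaning, so the numbers were not taken as pairs. As a hint from the data, residuals of same-numbered mRNA libraries of different diets correlated at -0.42 to 0.46 (median 0.275, 7 of 9 over 0.1), against a median of -0.196 for unlike numbers (4 of 18 over 0.1), and 3 of 9 libraries correlated best with their own number in both other diets. In RNC the range was -0.06 to 0.33 (median 0.0363), and for 1 of 9 libraries its own number was best. The replicate block, which called 11.5% and 11.3% of all genes in the 2 mRNA comparisons named above, moved no other count by over 1.5 times.

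Direction reversed for 5 named values, none of which passed, on leaving out a library or liver. Ugt1a5 in HFD against control mRNA was -0.27 without HFD replicate 3 (range when left out -0.27 to 2.48), and in RNC against mRNA of control livers 0.23 without control replicate 1 (-1.12 to 0.23). The HFD against control ratio was -0.0185 for Sult1d1 without control replicate 3 (-0.0185 to 0.51) and 0.33 for Ugt1a6a without HFD replicate 3 (-2.28 to 0.33). Ugt1a6a in RNC against mRNA of HFD livers was 0.72 without HFD replicate 3 (-1.89 to 0.72). The cause was not tested. Of the 10 members called in HFD+LYC against HFD RNC, 6 were called under every alternative that could be fitted for them (Sult1a1, Gstk1, Gstm6, Sult2a8, Sult2a7, Gsta3). Against control RNC, 5 of 10 were (Gstm6, Sult2a8, Sult1a1, Sult1b1, Gsta3).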
